A study of Mus musculus with 24 samples.

Results

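Calgranulins and granule proteins are made in quantity by neutrophils and their precursors, and some of their genes are also used by macrophages. The genes described here are S100a8 and S100a9, whose products pair to form the calcium- and zinc-binding protein calprotectin, the antimicrobial granule proteins Camp, Ngp, Ltf and Lcn2, the granule enzymes Mpo and Mmp8, and Fpr1, the receptor that guides phagocytes toward formylated peptides of bacteria. They were chosen by name, as every probe whose gene name equalled 1 of the 9 symbols. The arrays held 10 such probes among 41174, because Ltf had 2, and all 9 genes were among the 17347 of 21597 named genes that passed the filter on dim probes, which needs both channels of at least 1 condition to be well above background.

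Lipopolysaccharide and its minimal active form, Kdo2 lipid A (KLA), act through TLR4, a receptor whose signal reaches NF-kappaB and interferon regulatory factors. In neutrophil precursors the granule genes are switched on in order during maturation, with Mpo among the earliest and the secondary granule genes Camp, Ngp, Ltf and Lcn2 later. Lcn2 and Fpr1 are also known as genes that inflammatory signals raise in macrophages, and S100a8 and S100a9 are typical of monocytes and recently differentiated macrophages.

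The cells came from C57BL/6 mice, whose ages were not given in the sources used here, and were macrophages of the peritoneum after thioglycollate (EPM), macrophages grown from bone marrow (BMDM) and splenic B cells. EPM were taken by lavage and kept overnight on plates from which non-adherent cells had been washed. BMDM were grown in L-cell conditioned medium as a source of M-CSF and replated overnight with M-CSF, and B cells were the fraction left after cells that carry CD43 or CD11b had been removed on magnetic beads. Each cell type had 4 conditions, an early control, KLA for 1 h, DMSO for 12 h and KLA for 12 h, where the early control was untreated in EPM and B cells and DMSO for 1 h in BMDM. Each condition had 2 biological replicates, which shared 1 array of 2 colours as its Cy5 and Cy3 channels, so that 12 arrays gave 24 channels.

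Each cell type had a slide of its own for its 4 arrays, and slide and cell type therefore cannot be told apart in any comparison of EPM with BMDM. The spread between replicates leaves out differences between arrays. Between 57.4% and 65.0% of probes were well above background in each channel, and no spot was saturated. All 10 macrophage markers listed were well above background in every EPM and BMDM channel, and all 8 B cell markers in every B cell channel. The RNA came from whole cultures, in which fewer cells of a type and less RNA per cell cannot be told apart. In the normalized table of the authors, 4 of 24 columns, those of B cells with KLA at 1 h and of B cell controls at 12 h, matched the scanner channels of each other's condition (r of 0.98 or more) and not those of their own (r of -0.74 or less), so the labels of these conditions are in doubt.

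The promoters of the calgranulin pair and of the genes with the largest rises with KLA, Lcn2 and Fpr1, are shown for reading beside the values that follow. Each is written 5′ to 3′ on the gene's own strand, from 250 bases before the RefSeq start to 25 after it (GRCm38.p6), in lower case with capitals for every match to 1 of the motifs searched.

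S100a8: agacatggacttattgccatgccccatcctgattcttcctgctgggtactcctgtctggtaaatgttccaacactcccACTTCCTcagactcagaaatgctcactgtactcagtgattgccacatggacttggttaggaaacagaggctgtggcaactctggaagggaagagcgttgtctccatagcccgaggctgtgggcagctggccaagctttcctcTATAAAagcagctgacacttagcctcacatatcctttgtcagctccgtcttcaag
S100a9: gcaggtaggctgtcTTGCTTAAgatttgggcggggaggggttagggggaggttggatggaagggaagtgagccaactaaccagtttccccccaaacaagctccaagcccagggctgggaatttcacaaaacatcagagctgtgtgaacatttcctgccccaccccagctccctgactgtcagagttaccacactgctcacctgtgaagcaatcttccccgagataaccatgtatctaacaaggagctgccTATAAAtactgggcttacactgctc
Lcn2: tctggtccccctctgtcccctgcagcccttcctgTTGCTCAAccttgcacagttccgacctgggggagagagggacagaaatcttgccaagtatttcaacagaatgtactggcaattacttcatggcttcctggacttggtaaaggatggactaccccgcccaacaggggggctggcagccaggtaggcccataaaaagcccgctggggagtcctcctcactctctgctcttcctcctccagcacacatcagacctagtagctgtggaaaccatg
Fpr1: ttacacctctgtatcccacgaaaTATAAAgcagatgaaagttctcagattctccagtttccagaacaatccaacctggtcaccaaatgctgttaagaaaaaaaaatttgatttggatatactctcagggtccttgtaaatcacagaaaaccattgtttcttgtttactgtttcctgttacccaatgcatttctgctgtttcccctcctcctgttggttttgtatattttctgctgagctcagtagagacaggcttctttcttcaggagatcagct

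The window of S100a8 lies at chr3:90668821-90669095 on the plus strand, that of S100a9 at chr3:90695697-90695971 on the minus strand, that of Lcn2 at chr2:32387715-32387989 on the minus strand and that of Fpr1 at chr17:17883915-17884189 on the minus strand. The motifs were searched on both strands over the whole table window of 300 bases, in the 1 promoter that each of the 9 genes had. The TATA box (TATAAA) occurred in 4 of the 9, against 13.6% of all 32851 promoters in the table. The C/EBP motif TTGCNNAA occurred in 5 of the 9 (S100a9, Ngp, Ltf, Lcn2 and Mmp8), against 10.8% of all promoters. The PU.1 motif AGGAAGT occurred in S100a8, Mpo and Mmp8, against 9.35% of all promoters, and the NF-kappaB consensus in Camp, against 8.46%. In S100a8 the TATA box began at position -30 from the start, whereas in S100a9 it began at position 1, the annotated start itself, and in Fpr1 at -227. No motifs overlapped in these windows, apart from the palindromic match of Camp that counts on both strands. The letters describe the windows and do not show that a factor binds there.

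EPM and BMDM were first compared without KLA, to see how far the resting macrophages differed. All 8 genes other than Mmp8 were lower in EPM than in BMDM in the early controls, and Mmp8 was higher (limma, adjusted p under 0.05). Over all genes tested, 29.3% were called lower and 28.5% higher in this comparison, so that a call in itself was common, while the median difference over the 9 genes was -1.70 on the log2 scale against -0.01 over all genes. The directions in the 12 h controls were the same, with 8 lower and 1 higher against 29.8% and 27.2% of all genes, and a median of -1.85 against -0.02. The calls were also made with array means as samples and both control arrays of a cell type as replicates, by which 9 of 9 were past the threshold with the same directions, against 19.6% of all genes.

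**Figure D1:**
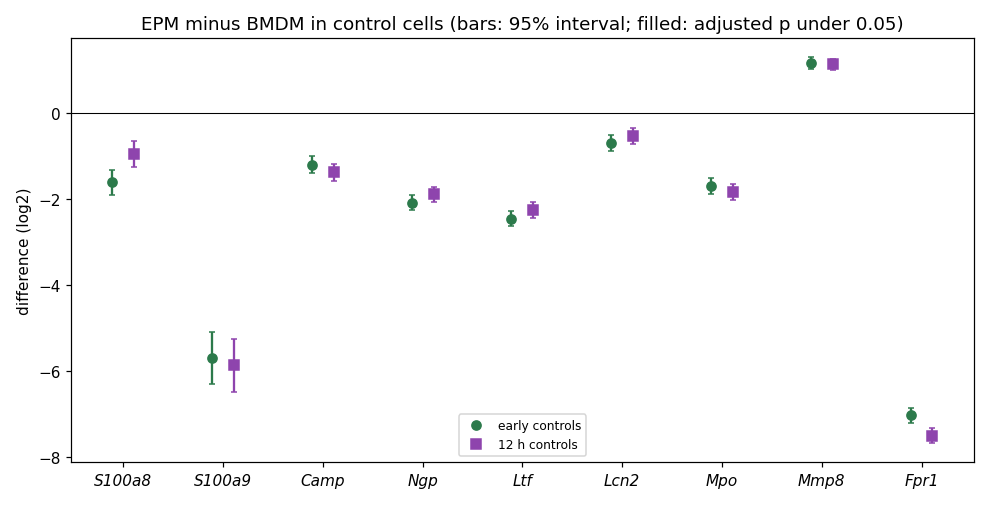
Difference between EPM and BMDM in the early controls (circles) and the 12 h controls (squares) for each gene, on the log2 scale with 95% intervals from limma (2 channels per group). Fpr1 and S100a9 lie furthest below 0, at -7.03 and -5.71 in the early controls, and Mmp8 alone lies above 0.

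Fpr1 differed most. Its probe (NM_013521, chr17:17581263-17581322 on mm8) gave log2 intensities of 6.84 and 6.76 in the early EPM controls and 13.79 and 13.87 in the BMDM controls. The EPM channels stood far below the BMDM channels with no overlap, a difference of -7.03 (standard error 0.08, adjusted p = 1.16e-20) or 131-fold. At 12 h the controls were at 6.58 and 6.61 in EPM and at 14.08 and 14.12 in BMDM, 182-fold apart. Dim values are compressed by the offset added to every intensity, and under the other settings tried the early difference lay between -8.10 and -6.99.

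S100a9 (NM_009114, chr3:90778590-90778649 on mm8) gave 7.93 and 7.66 in the early EPM controls against 13.44 and 13.56 in BMDM, a difference of -5.71 (standard error 0.29, adjusted p = 4.77e-12) or 52.2-fold. In the 12 h controls it gave 7.49 and 6.79 in EPM and 12.86 and 13.17 in BMDM, 58.7-fold apart. Its partner S100a8 (NM_013650, chr3:90755783-90755842) was read more evenly, at 8.71 and 9.07 in EPM and 10.65 and 10.38 in BMDM, 3.08-fold apart in the early controls. At 12 h S100a8 was at 8.99 and 9.21 in EPM and 10.18 and 9.95 in BMDM, 1.95-fold apart. The products of both genes act as a pair, yet the difference between the macrophages on the log2 scale was -5.71 for one and -1.62 for the other. Each value belongs to a single probe, and levels of different probes were not compared.

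The secondary granule genes were dim in EPM controls. Ngp (NM_008694, chr9:110266929-110267477), a cathelicidin-related granule protein, gave 6.01 and 6.04 in EPM, not well above background, and 8.11 and 8.14 in BMDM, at least 4.28-fold higher in BMDM. Camp (NM_009921, chr9:109704884-109704943), which encodes the cathelicidin peptide, gave 5.95 and 5.95 in EPM against 7.21 and 7.11 in BMDM, at least 2.27-fold higher in BMDM. Lcn2 (NM_008491, chr2:32207526-32207770), which binds bacterial iron carriers, gave 5.92 and 6.12 in EPM against 6.79 and 6.68 in BMDM, at least 1.61-fold higher in BMDM. In each of these genes the EPM channels lay below the BMDM channels, and the fold is a bound because EPM were not well above background. Ngp passed the filter on dim probes through BMDM alone, which favoured a lower reading in EPM.

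Ltf, the iron-binding lactoferrin (NM_008522), had probes at chr9:110885185-110885244 and chr9:110880576-110883626 on mm8. The brighter, first probe gave 6.72 and 6.72 in the early EPM controls and 9.34 and 9.03 in BMDM, a difference of -2.47 on the log2 scale or 5.52-fold. The other probe gave 6.68 and 6.61 in EPM and 8.61 and 8.48 in BMDM. Both probes thus read Ltf lower in EPM.

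The enzymes went opposite ways. Mpo (NM_010824, chr11:87619795-87620570), the peroxidase of primary granules, gave 7.41 and 7.54 in the early EPM controls and 9.14 and 9.21 in BMDM, 3.25-fold apart. Mmp8 (NM_008611, chr9:7568238-7568297), the neutrophil collagenase, gave 10.65 and 10.56 in EPM and 9.44 and 9.46 in BMDM. Mmp8 was the only one of the 9 genes that was higher in EPM, by 1.15 (standard error 0.06, adjusted p = 1.54e-11) or 2.22-fold in the early controls and 2.17-fold at 12 h.

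Marker lists of both neutrophils and macrophages were mostly lower in EPM, where 29.3% of all genes were called lower and 28.5% higher in the early controls. Of 12 neutrophil markers that are not among the 9, 11 had a probe, and 1 was higher and 6 were lower in EPM than in BMDM in the early controls, with a median of -0.49. Of 10 macrophage markers 1 was higher and 6 were lower, with a median of -0.58. Stfa1, a stefin of the cluster that marks neutrophils, was the lowest in EPM, by -2.84 (adjusted p = 6.05e-16). The summed linear intensity of the neutrophil list was 1749 to 1854 in EPM and 2638 to 2678 in BMDM, with 7 and 9 of 11 markers well above background in each channel. Of these sums Csf3r alone made 1007 to 1111 in EPM and 1094 to 1227 in BMDM. The other 10 probes made 742 to 744 in EPM and 1411 to 1584 in BMDM, against 687 to 688 in untreated B cells. Probes at background add to such a sum, because an offset is added to every intensity. Retnlg, a defining neutrophil gene, was not well above background in either early control, Il8rb (the chemokine receptor Cxcr2) was so only in the EPM channels, and Ly6g had no probe of that name. Of the granulocyte precursor genes, 0 of 5 were higher and 4 were lower in EPM. Ela2 and Ms4a3 passed the filter on dim probes through BMDM alone, as did the neutrophil markers Stfa2, Stfa2l1 and Retnlg. The filter thus favoured a lower reading in EPM for these. Ela2 (neutrophil elastase) was dim, at a mean of 5.88 in EPM and 6.31 in BMDM, and Ctsg was at 7.56 and 8.34. The part that neutrophils or their precursors in the cultures had in the differences was not tested.

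Other genes of granules did not share the direction. Of 19 tested, 8 were higher in EPM, 8 were lower and 3 were not called in the early controls, with a median of 0.03. Over all genes, 28.5% were higher and 29.3% lower. Ela2 and Fcnb on this list passed the filter on dim probes through BMDM alone. Slpi, an inhibitor of granule proteases, was 2.67 higher in EPM on the log2 scale, and Cst7, a cystatin, differed by -0.79. Of 11 other S100 genes, 8 were higher in EPM and 2 were lower, with S100a1 highest at 1.64 and S100a4 lowest at -0.98. Among receptors and regulators, Fpr-rs2, the array's name for the second formyl peptide receptor Fpr2, differed by -4.57 (adjusted p = 5.1e-19), the largest decrease of that list.

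**Figure D2:**
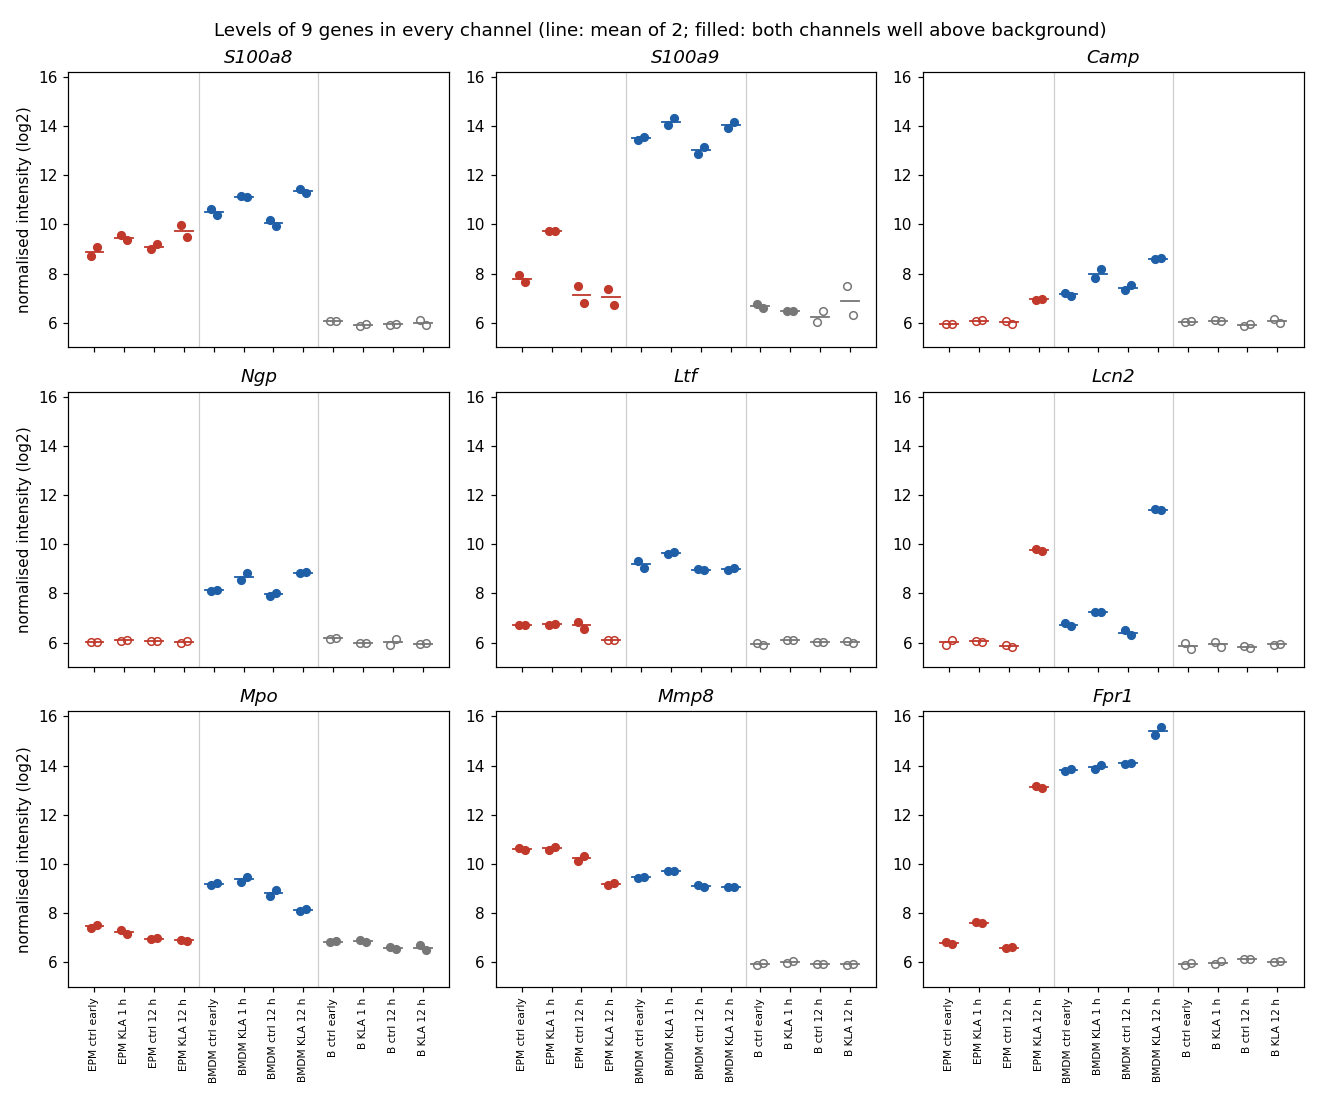
Normalized log2 intensity of each gene in every channel of the 12 conditions, with EPM in red, BMDM in blue and B cells in grey. Points are the 2 replicates, lines their mean, and points are filled where both were well above background. Fpr1 and S100a9 are far apart between early EPM and BMDM controls, Fpr1 and Lcn2 climb in EPM with KLA at 12 h, and B cells stay near background for most genes.

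The response to KLA was then read in each macrophage, at 1 h against the early control and at 12 h against DMSO for 12 h. The early control was untreated in EPM, so at 1 h in EPM KLA and its solvent cannot be told apart. At 1 h in EPM, S100a9, Fpr1 and S100a8 rose and Mpo fell, 3 higher and 1 lower of 9 against 9.39% higher and 19.7% lower over all genes. S100a9 went from 7.93 and 7.66 to 9.72 and 9.74, a rise of 1.94 (standard error 0.29, adjusted p = 4.64e-05) or 3.83-fold. Fpr1 went from 6.84 and 6.76 to 7.63 and 7.60, 1.76-fold higher, and S100a8 from 8.71 and 9.07 to 9.55 and 9.38, 1.49-fold higher. Treated and control channels did not overlap in any of these, nor in Camp, Ngp and Ltf, which were not called. The share of all genes without overlap was not computed.

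Mpo was at 7.30 and 7.14 with KLA in EPM after 7.41 and 7.54 in the control, a log2 change of -0.25 (adjusted p = 0.042). Without the second replicate of the early EPM control the change was -0.19 and was not past the threshold, nor was it without the first replicate of that control (-0.32) or the second with KLA (-0.17). The rise of S100a8 was likewise lost without the first replicate of the control (0.39) or of the KLA group (0.48). Camp, Ngp and Lcn2 were not well above background in either group, while Ltf and Mmp8 were above it and not called, with log2 changes of 0.03 each. The median over the 9 genes was 0.06 against -0.05 over all genes. With the scanner's processed signal the genes called were Camp (1.58), Ngp (1.41) and Fpr1, and S100a9 (2.29, adjusted p = 0.0522), S100a8 (0.41) and Mpo (-0.36) were not. With array means as samples in limma, KLA was compared with the early and 12 h controls together, so both the control and the spread differed. By that setting 0 of 9 passed at 1 h and 0.952% of all genes did, with S100a9 at 2.26. An unadjusted p under 0.05 was found there in 2 of 9, against 1722 of 17326 genes.

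At 12 h in EPM, 4 of the 9 genes were higher and 2 lower, against 19.6% and 34.3% of all genes, with a median of -0.03 against -0.06. Fpr1 rose most. It went from 6.58 and 6.61 in the DMSO control to 13.16 and 13.08 with KLA, a rise of 6.52 (standard error 0.08, adjusted p = 1.04e-20) or 92.1-fold. Both treated EPM channels lay far above their controls and below all 8 BMDM channels. Lcn2 went from 5.90 and 5.84, not well above background, to 9.79 and 9.74, at least 13.1-fold higher. Under the other settings its log2 change lay between 3.82 and 8.29, with the upper value from the scanner's processed signal.

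Camp became measurable, from 6.09 and 5.97 to 6.94 and 6.99, at least 1.84-fold higher, and S100a8 went from 8.99 and 9.21 to 9.96 and 9.51, 1.55-fold higher. S100a9, which had risen at 1 h, was at 7.37 and 6.74 with KLA and at 7.49 and 6.79 in the control, with overlapping channels and a log2 change of -0.08 (95% interval -0.69 to 0.53). The 1 h and 12 h responses of a gene were not tested against each other. Mmp8 fell from 10.14 and 10.32 to 9.16 and 9.24, 2.03-fold lower, and Ltf fell from 6.84 and 6.56 to 6.10 and 6.10, not well above background, at least 1.52-fold. The other Ltf probe went from 6.63 and 6.61 to 6.14 and 6.23. Ngp was not well above background in either group, and Mpo was at a mean of 6.90 with KLA and 6.97 in the control. Array means as samples gave 5 of 9 calls, against 11.6% of all genes, and S100a8 was not among them.

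In BMDM at 1 h, 6 of the 9 genes were higher and none was lower, against 11% higher and 17.6% lower over all genes, and the median was 0.51 against -0.03. The genes called were Camp, S100a8, Ngp, Lcn2, Ltf and Mmp8. Camp went from 7.21 and 7.11 to 7.81 and 8.19, 1.79-fold higher, and S100a8 from 10.65 and 10.38 to 11.14 and 11.11, 1.53-fold higher. Ngp went from 8.11 and 8.14 to 8.56 and 8.81, 1.47-fold, and Lcn2 from 6.79 and 6.68 to 7.25 and 7.24, 1.43-fold. Ltf and Mmp8 rose by 0.45 and 0.25 on the log2 scale. Channels with KLA lay above those of the control in each of the 6, but also in S100a9 and Mpo, which were not called. The share of all genes without overlap was not computed.

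S100a9 went from 13.44 and 13.56 to 14.03 and 14.31 in BMDM at 1 h without being called, at 0.67 (95% interval 0.06 to 1.28, adjusted p = 0.0945). With the dye as a replicate block its adjusted p was 0.0349, and over all settings tried it lay between 0.0065 and 0.556. Mpo, at 0.20, and Fpr1, at 0.11, were not called. With array means as samples in limma none of the 9 was called, against 0.571% of all genes. An unadjusted p under 0.05 was found there in 5 of 9, against 1592 of 17326 genes. With the processed signal 3 were called, while S100a8 (0.61), Ngp (0.70) and Mmp8 (0.29) were not.

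At 12 h in BMDM, 6 genes were higher and 1 lower, against 28.6% and 36.3% of all genes, with a median of 1.03 against -0.03. Lcn2 rose most, from 6.49 and 6.33 to 11.43 and 11.38, a rise of 5.00 (standard error 0.09, adjusted p = 8.9e-19) or 31.9-fold. Fpr1, already high, went from 14.08 and 14.12 to 15.25 and 15.58, 2.49-fold, and S100a8 from 10.18 and 9.95 to 11.45 and 11.27, 2.45-fold. S100a9 went from 12.86 and 13.17 to 13.91 and 14.18, 2.04-fold. Camp reached 8.59 and 8.62 from 7.32 and 7.53, 2.27-fold, and Ngp 8.81 and 8.88 from 7.89 and 8.04, 1.85-fold.

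Mpo alone fell in BMDM, from 8.69 and 8.95 to 8.09 and 8.16, 1.62-fold lower. Ltf, which had been higher at 1 h, gave 8.97 and 9.05 against 8.99 and 8.94 at 12 h (log2 change 0.04), and its other probe gave 8.66 and 8.67 against 8.36 and 8.48. Mmp8 gave 9.08 and 9.06 against 9.13 and 9.08 (log2 change -0.04). Where arrays were not normalized to each other, Ltf was called lower, at -0.30, and so was Mmp8, at -0.36. Array means as samples gave 5 of 9 calls, against 21.1% of all genes, with S100a9 and Mpo not called.

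**Figure D3:**
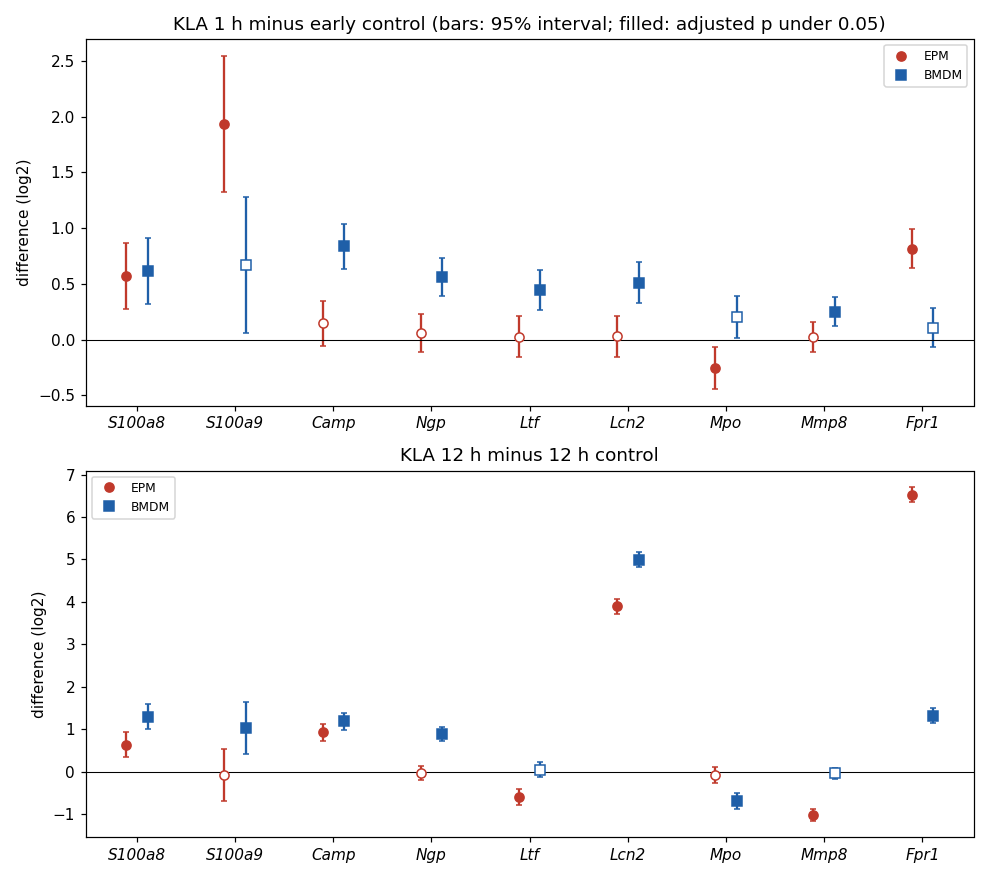
Change with KLA in EPM (red circles) and BMDM (blue squares), at 1 h above and 12 h below, on the log2 scale with 95% intervals from limma. The control at 1 h was the early control, untreated in EPM and DMSO for 1 h in BMDM, and at 12 h it was DMSO for 12 h. Filled symbols passed an adjusted p of 0.05. At 1 h S100a9 stands out in EPM at 1.94. At 12 h Fpr1 stands at 6.52 in EPM and 1.31 in BMDM, and Lcn2 at 3.90 and 5.00.

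The responses of the macrophages were tested against each other as an interaction, the signed log2 change in EPM minus that in BMDM. A value below 0 can thus be a smaller rise or a larger fall in EPM. The early control behind the 1 h response was untreated in EPM and DMSO for 1 h in BMDM. At 1 h the change was higher in EPM for 1 gene and lower for 5, against 4.07% and 5.49% of all genes. The median was -0.42 against -0.02. Fpr1 responded more in EPM, by 0.71 (standard error 0.12, adjusted p = 0.000473). The change was lower in EPM for Camp (-0.69), Ngp (-0.50), Lcn2 (-0.48), Mpo (-0.45) and Ltf (-0.42). Of these, Camp, Ngp and Lcn2 were not well above background in EPM. Mpo had changes of opposite sign, -0.25 in EPM, which was called, and 0.20 in BMDM, which was not. S100a9 was at 1.26 (adjusted p = 0.062), or 0.0141 with the dye as a replicate block, in a range of 0.0141 to 1 over all settings tried. Leaving out 1 replicate at a time left between 3 and 5 of the 6 calls. Ltf was lost without either replicate of the early EPM control or of KLA in EPM, without the second replicate of the early BMDM control, where it was at -0.27, and without either replicate of KLA in BMDM. Mpo was lost without the second early EPM control, the second KLA replicate in EPM, the first early BMDM control or the second KLA replicate in BMDM (-0.42 to -0.35), Lcn2 without the second early control of EPM or of BMDM, and Ngp without the second KLA replicate in BMDM. With the processed signal Camp and Ngp turned to 0.43 and 0.71, and neither was called. With array means as samples in limma no gene of the array was called. An unadjusted p under 0.05 was found there in 5 of the 9, against 424 of 17326 genes. Camp was at -0.60, Ngp at -0.60 and Ltf at -0.52. With the authors' values none of the 9 was called, against 7.71% of all genes.

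At 12 h the change was higher in EPM for 2 genes and lower for 6, against 23.2% and 24.6% of all genes. The median was -0.66 against -0.03. The response of Fpr1 was 5.21 larger in EPM (standard error 0.12, adjusted p = 2.18e-15), and the means with KLA were 13.12 in EPM and 15.42 in BMDM. Mpo was at 0.63, with changes of -0.07 in EPM and -0.69 in BMDM. Mmp8 was at -0.99, with -1.02 in EPM and -0.04 in BMDM, and Ltf at -0.64, with -0.60 and 0.04. Ltf was not well above background in EPM with KLA. The change was also lower in EPM for S100a9 (-1.11) and S100a8 (-0.66). Ngp was at -0.92 but was not well above background in either EPM group, so that only its rise in BMDM was measured. The difference of S100a9 was not past the threshold without the first replicate of the 12 h EPM control (-0.76), the second with KLA in EPM (-0.79), the first BMDM control (-0.96) or the second with KLA in BMDM (-0.97). That of S100a8 was lost without the second replicate of the 12 h EPM control (-0.55), of KLA in EPM (-0.44) or of the BMDM control (-0.55). Lcn2 was at -1.10, but its EPM control was at background, and with the processed signal the sign turned, to 1.37. Camp, at -0.25, was not called. With the processed signal 4 genes were higher and 2 lower, Camp was called at 2.32, and S100a9 (-1.68), S100a8 (-0.90) and Ngp (-0.48) were not called. With array means as samples, Fpr1 alone was called, against 0.618% of all genes.

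Genes listed with the 9 were read in the same comparisons. Over all genes, 9.39% were higher and 19.7% lower in EPM at 1 h, and 19.6% and 34.3% at 12 h. The shares in BMDM were 11% and 17.6% at 1 h, and 28.6% and 36.3% at 12 h. They apply to each list below. Of 19 other granule genes, 4 rose and 4 fell in EPM at 1 h, and 7 rose and 5 fell at 12 h. In BMDM 8 rose and none fell at 1 h, and 13 rose and 1 fell at 12 h. The median in BMDM at 12 h was 0.35 against -0.03 over all genes. Cst7 rose most in both macrophages at 12 h, by 5.72 in EPM and 4.73 in BMDM, where its mean level went from 6.09 to 11.81 and from 7.01 to 11.74. Hp (haptoglobin) rose by 2.66 and 4.01 and Mmp25, a membrane-bound metalloproteinase, by 1.48 and 3.72. The largest decreases were those of Anxa1, a ligand of formyl peptide receptors, in EPM (-1.27) and of Adam8 in BMDM (-0.33).

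Another formyl peptide receptor was read beside Fpr1. Fpr-rs2 rose by 6.43 in EPM at 12 h (adjusted p = 3.24e-21), from a mean of 6.17 to 12.60, and by 2.76 in BMDM, from 10.64 to 13.40. At 1 h it rose by 0.62 in EPM and 0.40 in BMDM. Among 12 receptors and regulators tested, 4 rose and 2 fell in EPM at 1 h, and 5 rose and 3 fell at 12 h. In BMDM 5 rose and 2 fell at 1 h, and 6 rose and 4 fell at 12 h. Nfkbiz, an NF-kappaB cofactor known to act at the Lcn2 gene, rose most at 1 h, by 6.23 in EPM and 3.22 in BMDM, and Cebpa, a regulator of granulocyte differentiation, fell most, to -1.71 in EPM and -3.04 in BMDM at 12 h.

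The other S100 genes were read with KLA in the same way. Of 11 tested, 1 was higher and 3 were lower in EPM at 1 h, against 9.39% and 19.7% of all genes, with S100a10 higher by 0.23. In BMDM 1 was higher and 1 lower, against 11% and 17.6%, with S100a5 higher by 0.19. At 12 h, 0 were higher and 7 lower in EPM (median -0.24), against 19.6% and 34.3%. In BMDM 1 was higher and 7 lower (median -0.28), against 28.6% and 36.3%. S100a4 fell most in both, by 1.53 in EPM and by 1.62 in BMDM on the log2 scale. S100a11 was the 1 that rose in BMDM, by 0.69.

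Neutrophil markers rose in BMDM beside the granule genes. Of 11, 6 were higher and none lower at 1 h, against 11% and 17.6% of all genes. At 12 h 8 were higher and none lower, against 28.6% and 36.3%, with a median of 1.36. Their summed intensity was 2313 to 2349 in the 12 h controls and 8716 to 9101 with KLA. Of these sums Csf3r alone made 1170 to 1186 and 5082 to 5661, and the other 10 probes 1142 to 1163 and 3441 to 3634. In EPM, 2 rose and 1 fell at 1 h, against 9.39% and 19.7% of all genes. At 12 h in EPM 5 rose and 1 fell, against 19.6% and 34.3%, with a median of 0.22. The sum in EPM was 1386 to 1433 in the 12 h controls and 3579 to 3806 with KLA, of which Csf3r alone made 694 to 735 and 2743 to 2924, and the other 10 probes 692 to 698 and 836 to 882. Csf3r, the receptor for G-CSF, rose most at 12 h in both, by 1.99 in EPM and 2.19 in BMDM, and Stfa1 rose by 0.56 and 2.15. Retnlg was well above background in both BMDM channels with KLA at 1 h (mean 6.33, against 5.98 in the control) and in no other BMDM or EPM channel. The part that cells other than macrophages had in these rises was not tested.

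**Figure D4:**
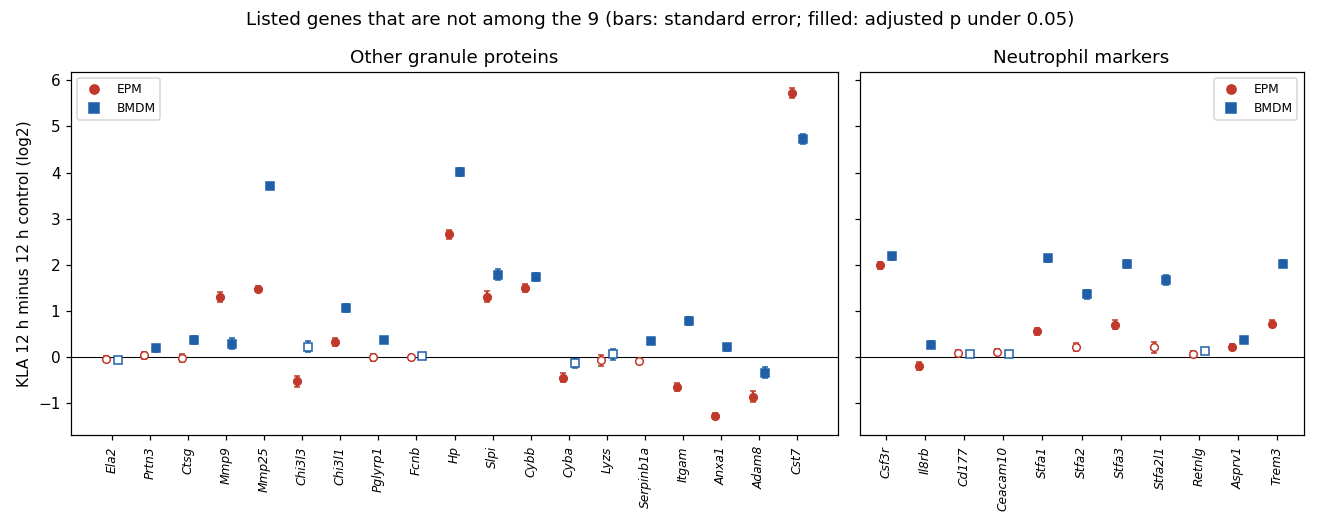
Change with KLA at 12 h in EPM (red circles) and BMDM (blue squares) for 19 other granule genes and 11 neutrophil markers, on the log2 scale with standard errors. Filled symbols passed an adjusted p of 0.05. Cst7 is the highest in both at 5.72 and 4.73, and Stfa1 rises by 0.56 in EPM and 2.15 in BMDM.

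B cells were read last, at 1 h against an untreated control. None of the 9 genes was called at 1 h or at 12 h, against 5.17% and 5.29% of all genes, with medians of 0.05 and 0.02 over the 9 and 0.01 and -0.01 over all. At an unadjusted p under 0.05 in limma there was 1 of 9 at each time, Ngp at 1 h and S100a9 at 12 h. With array means as samples none was called and none had such a p, against 322 of 17326 genes at 1 h and 232 at 12 h. Of the 9, only S100a9 and Mpo were well above background in B cells by the probes tested. S100a9 lay between 6.03 and 7.49 over the 8 channels, and 1 of the KLA replicates at 12 h stood above the rest at 7.49, beside 6.30 in the other. Without the lower of these replicates S100a9 passed the threshold at 12 h (1.24), which rests on a single channel. Mpo lay between 6.50 and 6.93.

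The channels of S100a8 lay between 5.85 and 6.12, those of Fpr1 between 5.89 and 6.15, those of Camp between 5.89 and 6.16 and those of Lcn2 between 5.74 and 6.04 in B cells. None of these was well above background in cells that had been depleted with CD11b, a marker of myeloid cells. With the labels of KLA at 1 h and of the 12 h control exchanged, Mpo was called lower with KLA at 1 h and at 12 h (-0.26 and -0.27) and Fpr1 was called at 1 h from values at background, 2 and 1 of 9 against 47.4% and 49.1% of all genes with these labels. The second Ltf probe gave 6.70 and 6.79 in the arrays labelled as 12 h control and 6.12 to 6.35 in the early control and with KLA.

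Controls of the same cells also moved between the times. In EPM, Mpo (-0.51) and Mmp8 (-0.38) were lower at 12 h than in the early control, 2 of 9 against 19.1% of all genes. In BMDM, 5 of 9 were called against 23.2% of all genes, with S100a8 (-0.45), Mpo (-0.36), Mmp8 (-0.34) and Lcn2 (-0.32) lower and Fpr1 (0.27) higher. Without the first early BMDM control or without the second 12 h control, S100a8, Lcn2 and Fpr1 were not called and 2 of 9 were. Mpo was not called without the second early or the first 12 h control (-0.32 and -0.23), and Fpr1 was also lost without the latter. With the authors' values 1 of 9 was called, against 20.6% of all genes, and with the dye as a replicate block 8 were, against 34.3%. In B cells Mpo was lower (-0.26), and Fpr1 passed the threshold with both groups at background, 2 of 9 against 47.4%. The early control was untreated in EPM and B cells, and there time and DMSO cannot be told apart.

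Over the 12 condition means, Fpr1 was highest in BMDM with KLA at 12 h, followed by the 12 h control, KLA at 1 h and the early control of BMDM, EPM with KLA at 12 h and then the other EPM conditions. BMDM with KLA at 1 h and the early BMDM control overlapped, and no other neighbours in the order of EPM and BMDM conditions did. The order of S100a9 began with BMDM at 1 h and at 12 h with KLA, which overlapped, and went on to the BMDM controls and EPM with KLA at 1 h, each apart from the next. For Lcn2 the order was BMDM and then EPM with KLA at 12 h, then BMDM at 1 h and the BMDM controls.

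The genes whose condition means followed each of the 9 most closely are given as a description, since the 12 means share slides and cell types. For S100a9 these were Ust, Ptprm and Slc12a5 (Pearson r of 0.99, 0.98 and 0.98), and Ust and Slc12a5 were also among the nearest to Ltf (0.996 and 0.99), with Fxyd2. For S100a8 they were Smox, Spred1 and Pdcd6ip (0.99 each), and for Fpr1 Irak3, Setd6 and Rassf4 (0.98 each). For Ngp the neutrophil marker Stfa1 came after Hrh3 (0.99 each), ahead of Jazf1. Mmp8 was followed most closely by Emp1, Ecm1 and Ibrdc1 (0.996, 0.99 and 0.99), and Mpo by Slc5a11, Exoc4 and Calml4 (0.98, 0.97 and 0.97). Camp had BC052046, Spic and 2010005H15Rik (0.99, 0.99 and 0.97), and Lcn2 had BC020489, E430029J22Rik and 4921525H12Rik (0.99 each). Among the 9 themselves, S100a9 and Ltf were at 0.98, S100a8 and S100a9 at 0.83, and Lcn2 and Mpo at 0.23.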

How the data were processed

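The authors deposited scanner intensity files of 12 arrays of 2 colours, made with Agilent Feature Extraction 9.5.3.1, and a table of normalized intensities for 38516 probes whose normalization is not given in the sources used here. Both samples of an array came with the same file (12 of 12 pairs), from which Cy5 was taken as replicate 1 and Cy3 as replicate 2. Samples were grouped by their labels. The 9 genes and all lists were chosen with earlier results of these data known.

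Background was corrected with normexp (offset 50), dyes were balanced by loess within arrays and arrays were brought to common quantiles of mean intensity, from which log2 values per channel were computed. Spots with outlier flags were dropped. A gene was read by its brightest probe and kept where both channels of at least 1 condition were well above background. The model was fitted in limma 3.58.1 under R 4.3.3 with a coefficient for each of the 12 conditions, p-values were adjusted by the method of Benjamini and Hochberg within each comparison, over every gene in it, and the threshold was 0.05. Intervals are at 95%. A fold is a bound where neither channel of a group was well above background, and it was taken against that gene's value or the dimmest signal well above background, whichever was higher in the channel. The fit was tested on data simulated with independent noise in each channel. It recovered 99 of 100 genes changed 2-fold and called 15 unchanged genes. The simulation held no array effect and no dye effect shared between arrays, so it cannot show whether the p-values hold for this design. Promoters came from RefSeq (GRCm38.p6) and probe positions from the files (mm8), and builds were not converted. The number of arrays limits the precision, and p-values measure the spread between replicates on a shared array.

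Replicates share their dye across conditions. Cy5 minus Cy3 correlated across genes in 66 of 66 pairs of arrays (0.27 to 0.63), so a fit with the dye as a replicate block was also made. Genes named beside the 9 were, per list and comparison, the largest increase and decrease past the threshold, and per gene the 3 genes with the highest Pearson r over the 12 condition means. Stfa1, Hp, Mmp25, Retnlg, Il8rb, Ela2, Ctsg, Fpr-rs2 and Cst7 were also described in comparisons where that rule did not name them, after their values were seen. Alternatives were an offset of 16, the processed signal, quantile normalization over channels, no normalization between arrays, the authors' values, 2 other filters, the mean of probes, the replicate block, only the cell types compared, arrays as samples, a threshold of 0.01, leaving out each replicate and the exchange of B cell labels. Figures were drawn with matplotlib 3.10.9 (Python 3.11.15).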

Additional observations from a re-analysis of the deposited data

Results flagged for a closer look

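For these genes the interaction test of limma passed the threshold for a response to KLA that differed between EPM and BMDM. Values are on the log2 scale (EPM minus BMDM). At 1 h the difference was 0.71 for Fpr1, -0.69 for Camp, -0.50 for Ngp, -0.48 for Lcn2, -0.45 for Mpo and -0.42 for Ltf. At 12 h it was 5.21 for Fpr1, 0.63 for Mpo, -1.11 for S100a9, -1.10 for Lcn2, -0.99 for Mmp8, -0.92 for Ngp, -0.66 for S100a8 and -0.64 for Ltf. Camp, Ngp and Lcn2 at 1 h and Ngp at 12 h were not well above background in either EPM group, Lcn2 at 12 h was not in the EPM control and Ltf at 12 h was not in EPM with KLA, so their responses in EPM were not measured on both sides. With the processed signal Camp and Ngp at 1 h were at 0.43 and 0.71, and Lcn2 at 12 h at 1.37, while S100a8, S100a9 and Ngp at 12 h were not called. Array means as samples left no call at 1 h and only that of Fpr1 at 12 h, and the authors' values left none of the 9 called at 1 h. All groups held 2 replicates, and EPM and BMDM lay on different slides. The control at 1 h was untreated in EPM and DMSO in BMDM.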

How the results depend on the processing

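Of 1300 log2 changes of single genes recomputed under other settings, 1130 kept their direction and side of the threshold, 53 changed sign without being called, 81 were no longer called, 25 were newly called and 11 reversed, and of 540 recomputed without 1 replicate 471 kept both, 22 changed sign uncalled, 42 were no longer called and 5 were newly called. In every comparison at least 1 setting moved the number of the 9 genes called by over 1.5 times. For EPM against BMDM controls only the filter for genes well above background in every channel did so, and it left 1 of the 9 to test. Every other setting called all 9 there, 1 higher and 8 lower. A filter for genes well above background in every channel kept only Mpo of the 9, and with it 1 was called in the early and in the 12 h controls of EPM against BMDM, in EPM at 1 h, in BMDM at 12 h, in both differences of response and in all 3 comparisons of controls over time, and 0 in EPM at 12 h and in BMDM at 1 h. With array means as samples, 0 were called in EPM at 1 h, in BMDM at 1 h and in the difference of response at 1 h, and 1 in that at 12 h. The comparison of controls over time could not be made with array means as samples.

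With the processed signal, 3 were called in BMDM at 1 h, 1 in B cells at each time, 1 in the difference of response at 1 h, 1 in BMDM controls over time and 4 in B cell controls. With the authors' values, 1 was called in B cells at 1 h, 0 in the difference of response at 1 h, 1 in BMDM controls over time and 0 in B cell controls. An offset of 16 gave 3 in the difference of response at 1 h and 3 in BMDM controls, and a threshold of 0.01 gave 3, 2 and, in B cell controls, 0. In B cell controls over time, 1 was called without normalization between arrays and 1 with quantile normalization over channels. With the dye pairing the channels as a replicate block, 1 was called in B cells at 1 h and 8 in BMDM controls over time. The block newly called S100a9 in BMDM at 1 h and in the difference of response at 1 h, Fpr1 in EPM controls, Camp, Ngp and Ltf in BMDM controls, and Ngp in B cells at 1 h and in their controls, and it changed no other call. The share of all genes called also moved with the setting, in EPM at 1 h from 0.952% with array means to 40.7% with the block. In B cell controls over time it was 47.4% by the model first described. These counts therefore describe the settings and are not read as results about the 9.

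Reversed values were, with the processed signal, -2.11 for Ltf in B cells at 12 h, 0.43 for Camp and 0.71 for Ngp in the difference of response at 1 h, and 2.32 for Camp and 1.37 for Lcn2 in that at 12 h. Ltf was at -0.30 in BMDM at 12 h without normalization between arrays, Mpo at -0.37 in B cells at 1 h by the authors' values, and Mpo at 7.48e-05 in EPM at 1 h with array means as samples. With B cell labels exchanged, Mpo was at -0.26 at 1 h, -0.27 at 12 h and 0.022 between controls, and 2, 1 and 0 genes were called, against 47.4%, 49.1% and 5.17% of all genes. Without 1 replicate, the number called was 2 to 3 in EPM at 1 h, 0 to 1 in B cells at 12 h, 3 to 5 in the difference of response at 1 h, 2 to 5 in BMDM controls and 0 to 1 in B cell controls. The value of Mpo with array means has another comparator, since that setting takes the early and 12 h controls together as the control. The cause of the other changes was not tested. The processed signal moved the median of all genes by 0.14 in BMDM at 12 h and -0.13 in the difference of response, and the lack of normalization between arrays by -0.11 and 0.19. Dim probes bound what Camp, Ngp, Lcn2 and Ltf can show in EPM and B cells.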
